A study of Mus musculus with 12 samples.

Results

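The chloride cotransporters and the kinases that regulate them were followed in the forebrain transcriptomes of juvenile and adult Shank3-mutant mice as 7 genes, 4 cotransporters (Slc12a2, Slc12a4, Slc12a5 and Slc12a7) and 3 kinases (Wnk1, Stk39 and Oxsr1). They were taken by symbol from the deposited table of normalized counts, and all 7 were found among its 19268 genes. Each library came from the forebrain, without the olfactory bulb, of a male C57BL/6J mouse, and there were 3 libraries in each of 4 groups. The wild-type groups at postnatal days 25 and 60 are called P25-WT and P60-WT. The knock-out groups at the same ages, P25-KO and P60-KO, carried on both alleles a Shank3 gene that lacks several internal exons. SHANK3 is a postsynaptic scaffold protein. The methods name no Cre driver that would limit the deletion to a cell type, and all groups share the strain and the sex. The study's figure legends describe the 3 libraries of a group as 3 mice.

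Neurons set their internal chloride with cotransporters that couple chloride to potassium or sodium. NKCC1, the product of Slc12a2, carries chloride inward, and KCC2, the product of Slc12a5, carries it outward and is specific to neurons, so that the balance of both proteins sets whether GABA depolarizes or hyperpolarizes a cell. WNK kinases such as WNK1 respond to chloride and osmolarity and activate the kinases SPAK (Stk39) and OSR1 (Oxsr1), which phosphorylate the cotransporters, raising NKCC1 activity and lowering KCC activity. These data measure transcripts and hold no phosphorylation or protein level.

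The 7 genes lie on 7 loci of the mouse assembly GRCm38. Slc12a2 (ENSMUSG00000024597) is at chr18:57878678-57946821, Slc12a4 (ENSMUSG00000017765) at chr8:105943590-105966097, Slc12a5 (ENSMUSG00000017740) at chr2:164960802-164999731 and Slc12a7 (ENSMUSG00000017756) at chr13:73733094-73816754. Wnk1 (ENSMUSG00000045962) is at chr6:119923969-120038672, Stk39 (ENSMUSG00000027030) at chr2:68210445-68472268 and Oxsr1 (ENSMUSG00000036737) at chr9:119238432-119322427. The share of their 31-base words found in transcripts of other genes was 6.53% for Slc12a4, 0.245% for Wnk1, 0.193% for Slc12a2, 0.132% for Slc12a5 and 0 for the others. Whether counting used strand is not stated, and Wnk1 overlaps another gene of the table, Gm16199.

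The labels and the tissue were checked first. Shank3 was at 5174 ± 481 normalized counts in P25-KO and 10779 ± 786 in P25-WT, and at 4914 ± 339 in P60-KO and 9796 ± 749 in P60-WT (SD, n = 3), so that every KO library lay below every WT library. The summed level of 12 forebrain markers lay between 22775 and 26708 in every library. The defining granule cell gene of the cerebellum, Gabra6, was at 221 in P60-WT replicate 2 and 68.5 in P60-KO replicate 1 and at 4.40 or less in the other libraries, so these libraries hold transcripts from outside the forebrain. In P25-WT replicate 2, the 25% of genes with the greatest exon length had a median deviation of -0.13 (log2) from the mean of the 5 other P25 libraries, and the 25% with the smallest had one of 0.21.

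RefSeq promoters (GRCm38.p6, 250 bases before the start) were matched for 6 of the 7 genes, all but Slc12a2, with 8 starts in all. Of these, 4 are printed 5′ to 3′ on the gene's strand: both starts of Slc12a5, because the deposited value sums transcripts from both, and those of Oxsr1 and Slc12a4, because these genes changed with age in opposite directions. Capitals mark matches on either strand to the letters of a GC box (GGGCGG), an E-box (CACGTG) or a cAMP response element (TGACGTCA).
Slc12a5, start 1, chr2:164960596-164960845: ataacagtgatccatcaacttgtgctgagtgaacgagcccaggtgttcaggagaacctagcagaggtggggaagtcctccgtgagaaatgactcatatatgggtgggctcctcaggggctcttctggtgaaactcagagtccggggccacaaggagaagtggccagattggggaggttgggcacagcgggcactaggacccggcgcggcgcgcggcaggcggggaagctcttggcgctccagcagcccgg
Slc12a5, start 2, chr2:164967738-164967987: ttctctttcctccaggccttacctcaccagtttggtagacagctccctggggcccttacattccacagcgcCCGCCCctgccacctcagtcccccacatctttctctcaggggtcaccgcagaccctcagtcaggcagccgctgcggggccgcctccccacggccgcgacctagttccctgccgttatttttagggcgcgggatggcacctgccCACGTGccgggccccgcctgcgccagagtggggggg
Oxsr1, chr9:119322428-119322677: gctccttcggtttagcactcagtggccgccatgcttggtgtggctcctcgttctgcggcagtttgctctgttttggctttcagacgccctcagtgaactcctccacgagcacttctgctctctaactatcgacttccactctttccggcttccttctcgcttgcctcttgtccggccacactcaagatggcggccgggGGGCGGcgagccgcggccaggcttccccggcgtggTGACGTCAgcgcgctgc
Slc12a4, chr8:105966116-105966365: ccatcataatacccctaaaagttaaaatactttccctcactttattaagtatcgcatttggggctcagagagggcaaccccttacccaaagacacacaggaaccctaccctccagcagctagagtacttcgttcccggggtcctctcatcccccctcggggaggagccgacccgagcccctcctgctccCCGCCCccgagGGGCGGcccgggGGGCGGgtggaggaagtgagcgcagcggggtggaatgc
The GC content of these windows was 61.2% and 67.2% for the starts of Slc12a5, 62.4% for Oxsr1 and 60.8% for Slc12a4, beside a median of 52.4% over all 32851 promoters of the same length. None of the searched motifs was in the window of Slc12a5 start 1, and start 2 held 1 GC box and 1 E-box. The Oxsr1 window held 1 GC box and 1 cAMP response element, and that of Slc12a4 held 3 GC boxes. Over all promoters, 32.7% held a GC box, 6.02% this E-box and 1.55% the cAMP response element. The search also covered GCGNGGGCG and TATAAA, held by 4.70% and 12.4% of promoters and by none of the 8 windows. These matches describe letters and show no binding.

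Slc12a5 had the highest level of the 7 genes in this tissue with each of the 3 lengths tried. On the scale of normalized counts per kb of exon, which allows levels of different genes to be compared, Slc12a5 had a mean of 3094 over the 12 libraries (range 2571 to 3266). Stk39 followed at 391 (359 to 427), Wnk1 at 359 (278 to 426), Oxsr1 at 312 (237 to 362) and Slc12a2 at 303 (266 to 361). Slc12a4 was at 200 (174 to 255) and Slc12a7 at 15.2 (11.9 to 22.3). The ranges of neighbours from Stk39 down to Slc12a2 overlapped. Within a library, Stk39 was above Oxsr1 and Slc12a2 in all 12 and above Wnk1 in 9, and Oxsr1 was above Slc12a2 in 6 of 12. On this scale Slc12a5 stood above all others, and Slc12a4 and Slc12a7 each lay below every library of the gene before. The order of the middle genes depended on the length used. With the longest annotated transcript, Wnk1 (723 per kb) lay above Stk39 (548) and Slc12a2 (507) above Oxsr1 (359), and Slc12a5 (3822) and Slc12a7 (27.6) remained first and last. With the median length of a gene's transcripts, the lead of Slc12a5 was smaller (19963 per kb, against 7950 for Wnk1), and Slc12a4 (1200, range 1040 to 1526) lay above Oxsr1 (1038) and, in every library, above Slc12a2 (601, range 529 to 717). That median was 715 bases for Slc12a4 (5 annotated transcripts) and 5500 for Slc12a2 (2), beside longest transcripts of 3811 and 6520.

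**Figure D1:**
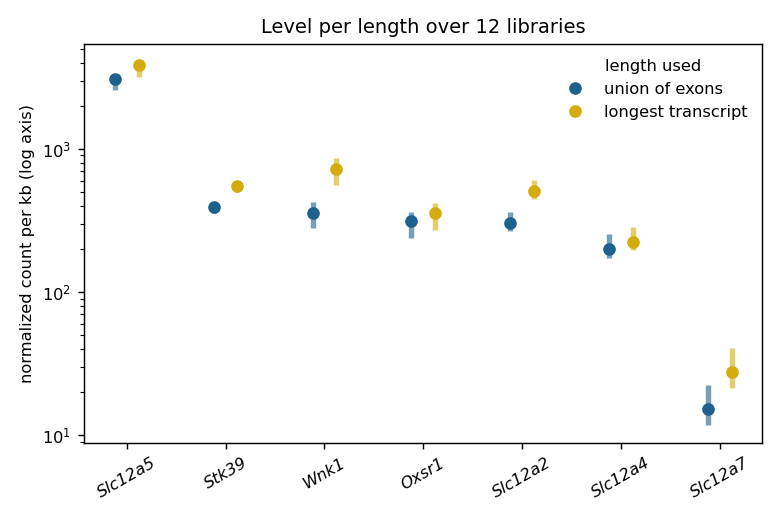
Normalized count per kb (log axis) of each of the 7 genes, for the length of all exons joined (blue) and of the longest annotated transcript (yellow). Points are means over 12 libraries and bars run from the lowest to the highest library. Slc12a5 lies above and Slc12a7 below all other genes with either length.

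The age comparison asks which of these transcripts differ between juvenile and adult forebrain. Of the 7 genes, 3 changed between P25 and P60 over both genotypes (limma, adjusted p under 0.05): Oxsr1 rose, and Slc12a2 and Slc12a4 fell. Among all 17594 genes tested, 37.6% were called in this comparison, 18.3% higher and 19.3% lower at P60, so a share of 3 of 7 is near the background. The values are given first for the cotransporters and then for the kinases.

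Slc12a5 encodes KCC2, the neuronal chloride exporter. Its normalized counts were 23982, 19145 and 24320 in P25-WT, 23160, 23716 and 22364 in P25-KO, 23090, 24067 and 23656 in P60-WT, and 23320, 22479 and 23152 in P60-KO. P25-WT replicate 2 was the lowest, all other libraries lay between 22364 and 24320, and the 4 groups overlapped. The difference between ages was 0.04 ± 0.05 (log2 fold change ± SE, 95% interval -0.08 to 0.15, adjusted p = 0.616 by limma). The direction turned without P25-WT replicate 2 (-0.02, adjusted p = 0.640), and with quantile normalization the gene was called higher at P60 (0.15, adjusted p = 0.0303 by limma).

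Slc12a2 encodes NKCC1, the chloride importer of immature neurons, glia and choroid plexus. Its normalized counts were 3719, 3196 and 3942 in P25-WT and 3713, 3317 and 3577 in P25-KO, against 2988, 3093 and 3070 in P60-WT and 2959, 3168 and 2907 in P60-KO. The lowest P25 library, P25-WT replicate 2, lay just above the highest P60 library, P60-KO replicate 2, so the ages did not overlap. Such separation of 6 libraries from 6 held for 19.6% of all genes. Slc12a2 fell by 0.24 ± 0.05 on the log2 scale (fold 0.849, adjusted p = 0.00276 by limma). The call held in all alternatives, with values from -0.27 to -0.19.

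Slc12a4 encodes KCC1, a widely expressed potassium-chloride cotransporter. Its normalized counts were 1001, 834 and 1091 in P25-WT and 942, 836 and 930 in P25-KO, against 754, 748 and 753 in P60-WT and 850, 811 and 743 in P60-KO. The ages overlapped only because P60-KO replicate 1, at 850, lay above both second replicates of P25. The P60-WT libraries differed little, with an SD of 3.23. Slc12a4 fell by 0.27 ± 0.07 on the log2 scale (fold 0.830, adjusted p = 0.00831 by limma), and the call held in all alternatives (-0.31 to -0.22).

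Slc12a7 encodes KCC4, a cotransporter best known from kidney and inner ear, and was the lowest of the 7 genes. Its normalized counts ran from 151 to 282 (median 225) over the 6 libraries of P25 and from 150 to 199 (median 165) over those of P60. The P25 libraries varied widely, with an SD of 52.2 against 17.0 at P60, and the ages overlapped. The difference of -0.33 ± 0.15 did not pass the test (adjusted p = 0.0889 by limma), but it did so without P25-WT replicate 2 (-0.44, adjusted p = 0.0141) and without P25-KO replicate 1 (-0.42, adjusted p = 0.0354), which held the lowest P25 values.

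Among the kinases, Oxsr1, which encodes OSR1, changed most clearly. Its normalized counts were 1523, 1270 and 1537 in P25-WT and 1517, 1545 and 1437 in P25-KO, against 1935, 1875 and 1783 in P60-WT and 1825, 1896 and 1875 in P60-KO. Every P60 library lay above every P25 library, and the gap between the ages, from 1545 to 1783, was wider than for Slc12a2. Oxsr1 rose by 0.34 ± 0.05 on the log2 scale (fold 1.27, adjusted p = 0.000206 by limma), and the call held in all alternatives (0.30 to 0.39).

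Stk39, which encodes SPAK, the close relative of OSR1, did not pass the test. Its normalized counts were 1890, 1978 and 1795 in P25-WT, 1879, 1827 and 1779 in P25-KO, 1992, 1833 and 2088 in P60-WT, and 1993, 2092 and 2117 in P60-KO. All P60-KO libraries were above all P25 libraries, whereas P60-WT replicate 2, one of the libraries with cerebellar transcripts, lay within the P25 range. The difference was 0.12 ± 0.05 (adjusted p = 0.0604 by limma). Without P60-WT replicate 2 it was 0.15 (adjusted p = 0.0213), without both libraries with cerebellar transcripts 0.16 (adjusted p = 0.0301), and without P25-WT replicate 2 it was 0.14 (adjusted p = 0.0190).

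Wnk1 encodes the upstream kinase of the pathway. Its normalized counts were 8537, 6344 and 8327 in P25-WT, 7743, 7553 and 7704 in P25-KO, 9730, 8245 and 8030 in P60-WT, and 9351, 8654 and 8039 in P60-KO. The first replicates of both P60 groups were the highest of all libraries, and P25-WT replicate 2 was the lowest. The difference of 0.17 ± 0.07 did not pass the test (adjusted p = 0.0659 by limma), and it did without P25-WT replicate 1 (0.21, adjusted p = 0.0377) or replicate 3 (0.20, adjusted p = 0.0431). Without P25-WT replicate 2, the lowest library, the difference was 0.11 (adjusted p = 0.108), and it did not pass without P60-WT replicate 1 either (0.14, adjusted p = 0.154).

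**Figure D2:**
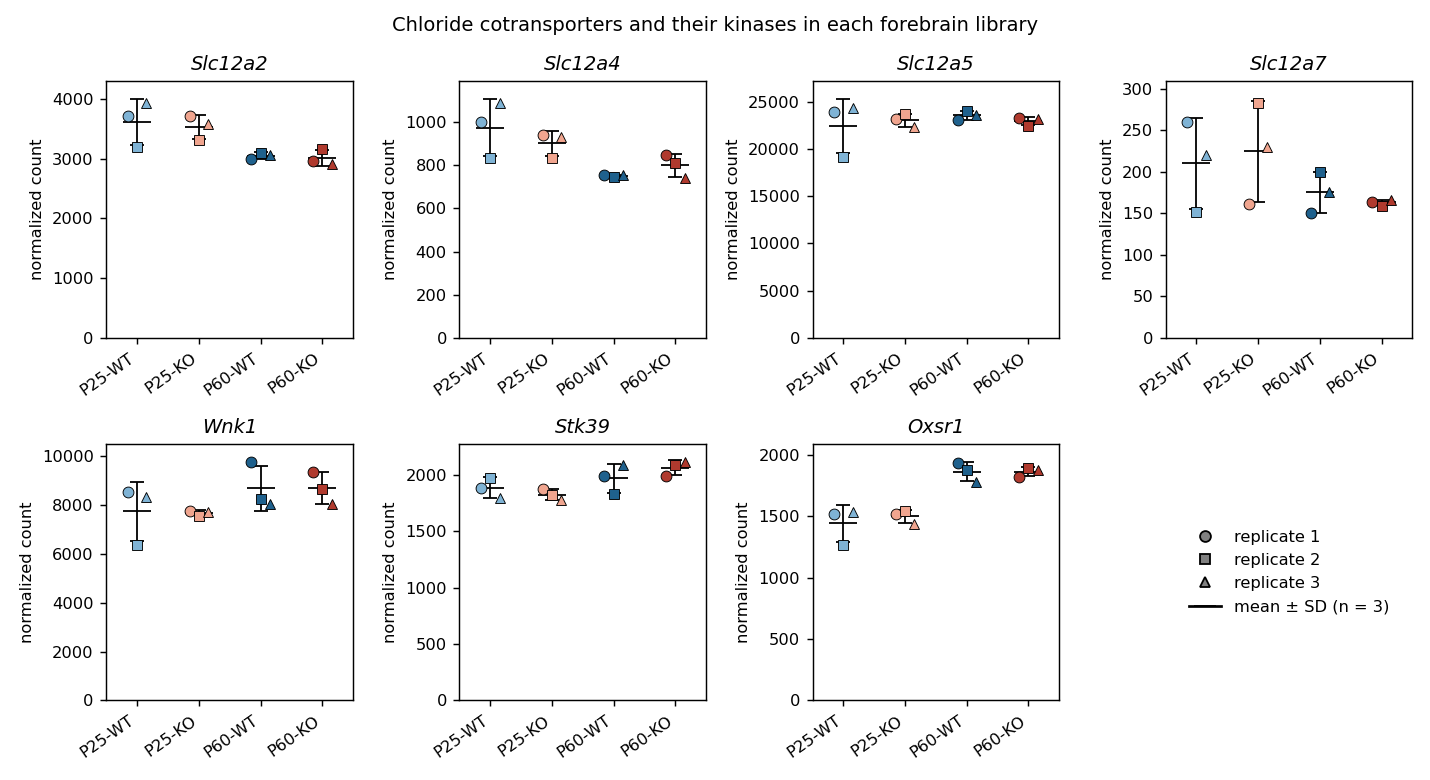
Normalized counts of the 7 genes in every library (linear axes from 0), by group, with replicates as symbols and the mean ± SD of 3 libraries as black bars. The P60 libraries lie below all P25 libraries for Slc12a2 and above all of them for Oxsr1, and P25-WT replicate 2 is the lowest library for Slc12a5, Wnk1 and Oxsr1.

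The number of the 7 genes called depended on the scaling. With the libraries brought to equal totals, Wnk1 and Stk39 were called higher as well, giving 3 genes higher and 2 lower, and with quantile normalization Slc12a5 joined them, giving 4 higher and 2 lower. Of all genes, 6616 were called with the deposited scaling, 6768 with equal totals and 6542 with quantile normalization. Equal totals also moved the share of higher genes among all calls from 48.7% to 59.7%, with the median of all genes at 0.05, and quantile normalization gave 51.8%. Without P25-WT replicate 2, 5 of the 7 were called, with Slc12a7 and Stk39 added, beside 38.3% of all genes.

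Within each genotype, fewer genes passed. In WT mice Oxsr1 rose from P25 to P60 (0.37 ± 0.10, adjusted p = 0.0454 by limma), and it was the 1 of 7 genes called, beside 8.65% of all genes. Slc12a2 (-0.24, adjusted p = 0.115) and Slc12a4 (-0.37, adjusted p = 0.0707) did not pass, although all P60-WT libraries lay below all P25-WT libraries for both. Groups that do not overlap were found for these 3 of 7 genes and for 36% of all genes in this comparison. The Oxsr1 call in WT was lost without any of P25-WT replicate 1 and the 3 P60-WT libraries, where the adjusted p lay between 0.0971 and 0.155, and with eBayes without trend (adjusted p = 0.110 by limma). With all 12 libraries in one fit, Oxsr1 (adjusted p = 0.00583), Slc12a2 (0.0419) and Slc12a4 (0.0199) were called. Without P25-WT replicate 2, Oxsr1, Slc12a2 (-0.33, adjusted p = 0.00715 by limma) and Slc12a4 (-0.47, adjusted p = 0.00640) were all called. The share of 8.65% of all genes belongs to the first fit in WT and not to these alternatives. The share of higher genes among all calls in WT was 42.3%, and 59.3% with equal totals.

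In KO mice, 2 of the 7 genes were called beside 20.7% of all genes, with Oxsr1 higher (0.32 ± 0.06, adjusted p = 0.00583 by limma) and Slc12a2 lower (-0.23 ± 0.06, adjusted p = 0.0265). Stk39 (0.18, adjusted p = 0.0530) and Wnk1 (0.18, adjusted p = 0.0597) missed the threshold, although their KO libraries of both ages did not overlap. In all, 4 of the 7 genes did not overlap between the ages in KO, as did 39.4% of all genes. The Slc12a2 call was lost without P25-KO replicates 1 or 3 or P60-KO replicates 1 or 3 (adjusted p from 0.0724 to 0.0996 by limma). It was also lost with replicate number as a block. With eBayes without trend (adjusted p = 0.0944 by limma) and with all 12 libraries in one fit (adjusted p = 0.0608) it was lost too. The Oxsr1 call held in these last 2 alternatives. With a minimum mean of 50, Stk39 was called as well (adjusted p = 0.0449). Slc12a7, at -0.42 (adjusted p = 0.125), was called without P25-KO replicate 1 (-0.64, adjusted p = 0.0208), and Wnk1 without P60-KO replicate 3 (0.23, adjusted p = 0.0274). The share of higher genes among all calls in KO was 45.3%, and 56.5% with equal totals, under which Stk39 and Wnk1 were also called.

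That a gene was called in 1 genotype only does not show that the genotypes differ. The genotype by age interaction was called for none of the 7 genes, and for 0% of the 17594 genes tested by limma (288 genes, or 1.64%, at an unadjusted p under 0.05). The interaction of Slc12a2 was 0.01 (95% interval -0.22 to 0.24) and that of Slc12a5 was -0.08 (-0.31 to 0.15). For Oxsr1 it was -0.06 (-0.29 to 0.18), and Slc12a4 had the largest value of the 7 genes, 0.19 (-0.10 to 0.49).

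The genotype comparison asks whether the deletion of Shank3 exons shifted these transcripts, and none of the 7 was called at either age. Shank3 signal remained in the KO libraries, with means of 5174 in P25-KO and 4914 in P60-KO. At P25, 0.00571% of all genes were called by limma, which is Shank3 alone, and at P60 it was 0.00568%, again Shank3. The study itself, with DESeq2, reported small sets of further genes, including Yy2 and Fancm at P25 and Gstp1 and Lamb3 at P60. All 7 genes overlapped between KO and WT at both ages, whereas 4.76% of all genes at P25 and 7.79% at P60 did not. No member had an unadjusted limma p under 0.05 at either age or over both, where 1.36% of genes at P25, 2.5% at P60 and 2.05% over both ages did.

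The intervals show how large a genotype effect the data could have missed. Over both ages (0.00568% of all genes called), the difference between KO and WT was 0.00 for Slc12a5 (95% interval -0.11 to 0.12) and -0.02 for Slc12a2 (-0.14 to 0.09). It was 0.03 for Oxsr1 (-0.08 to 0.14), 0.01 for Stk39 (-0.09 to 0.11) and 0.00 for Wnk1 (-0.15 to 0.15). The interval of Slc12a4 ran from -0.16 to 0.14, and only that of Slc12a7, the lowest gene, reached further (-0.31 to 0.31). At a single age the intervals ran from -0.24 to 0.18 for Slc12a2 and from -0.17 to 0.26 for Slc12a5 at P25, and from -0.14 to 0.10 and -0.13 to 0.05 at P60. They were wider for Slc12a7 (-0.46 to 0.65 at P25 and -0.39 to 0.21 at P60) and for Slc12a4 (-0.36 to 0.15 and -0.07 to 0.25). Mean levels were 22482 ± 2895 in P25-WT and 23080 ± 679 in P25-KO for Slc12a5, and 3619 ± 383 and 3536 ± 201 for Slc12a2 (SD, n = 3), so that the WT spread at P25 was wider than the difference.

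**Figure D3:**
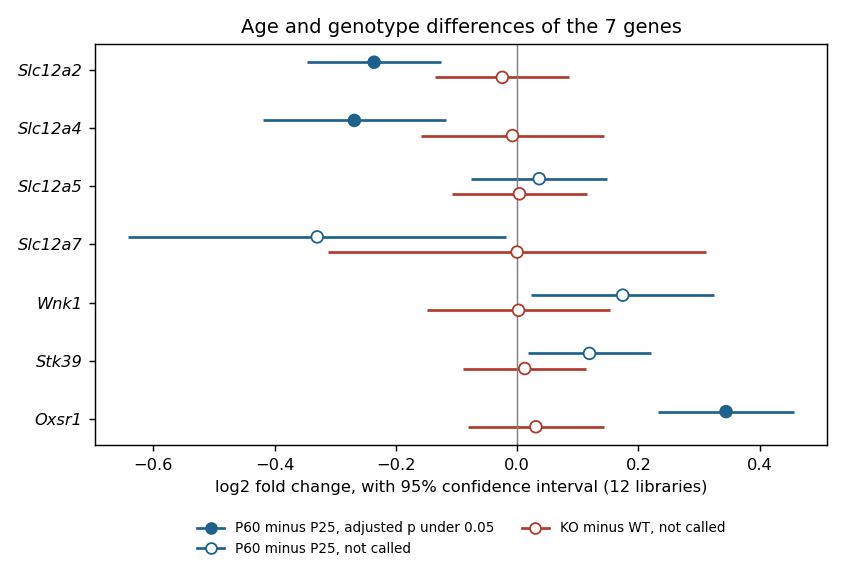
Log2 fold changes of the 7 genes with 95% confidence intervals over 12 libraries, for P60 minus P25 (blue) and KO minus WT (red), with filled points for an adjusted p under 0.05. The age points of Oxsr1 (0.34), Slc12a2 (-0.24) and Slc12a4 (-0.27) are filled, and every genotype interval spans 0.

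The ratio of Slc12a5 to Slc12a2 within a library, often used as a transcript index of the balance of chloride export and import, does not change when all values of a library are multiplied by the same factor. It was 6.45, 5.99 and 6.17 in P25-WT, 6.24, 7.15 and 6.25 in P25-KO, 7.73, 7.78 and 7.71 in P60-WT, and 7.88, 7.10 and 7.96 in P60-KO. The WT libraries of the 2 ages were far apart, and the KO libraries overlapped through the second replicates, since P25-KO replicate 2 (7.15) lay above P60-KO replicate 2 (7.10). Group means were 6.20 ± 0.230 in P25-WT, 6.55 ± 0.522 in P25-KO, 7.74 ± 0.0387 in P60-WT and 7.65 ± 0.480 in P60-KO (SD, n = 3).

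The ratio was higher at P60 than at P25, with means of 7.69 and 6.37. The difference was 0.27 on the log2 scale, a 20.8% rise (two-sided exact permutation of ages within genotypes, p = 0.01, adjusted p = 0.04 over the 4 ratio tests, smallest p the design allows 0.005). The adjusted p rose to 0.06 in the same exact test without P25-KO replicate 1 or 3 or P60-KO replicate 1 or 3, with differences from 0.26 to 0.30 over all single omissions. Without both libraries with cerebellar transcripts the difference was 0.26 (adjusted p = 0.08, exact permutation test). Of both genes in the ratio, Slc12a2 passed the test between ages and Slc12a5 did not, except with quantile normalization. In whole tissue these genes can come from different cell types, so the ratio need not describe the balance within neurons.

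The ratio did not pass a test between genotypes. KO minus WT was 0.08 (log2) at P25 (two-sided exact permutation p = 0.4) and -0.02 at P60 (exact permutation p = 1), and 3 libraries against 3 cannot give a p below 0.1. Over both ages it was 0.03 (exact permutation p = 0.565, adjusted p = 0.753). Expressed per kb of exon, the ratio was 10.3 on average (8.78 to 11.7 over the 12 libraries), and 7.61 (6.48 to 8.61) with the longest transcripts.

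**Figure D4:**
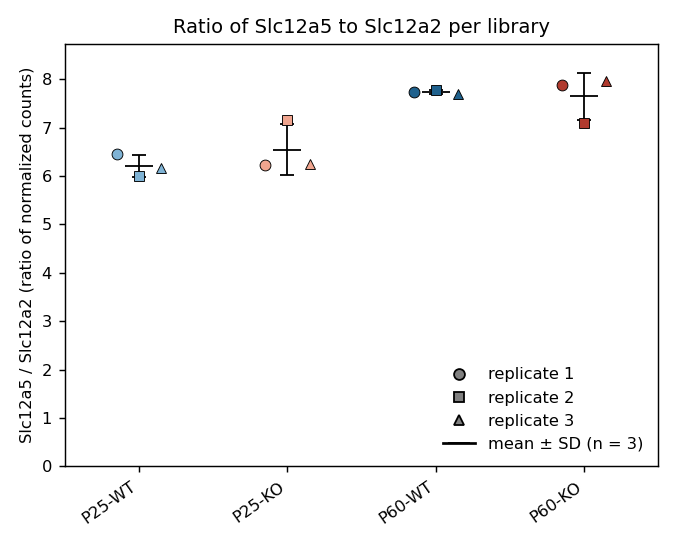
Ratio of the normalized counts of Slc12a5 to those of Slc12a2 in every library (linear axis from 0), with replicates as symbols and mean ± SD of 3 libraries as black bars. The P60-WT libraries sit between 7.71 and 7.78, above all P25-WT libraries, and 1 P25-KO library at 7.15 reaches the range of P60-KO.

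Markers of the cells that can contribute these transcripts also differed between the ages, and in whole tissue fewer cells of a type and less RNA per cell cannot be told apart. Of 12 markers of oligodendrocyte precursors, a cell type in which Slc12a2 is expressed, 9 fell and none rose from P25 to P60, with a median of -0.53 (log2), beside 37.6% of all genes called, 19.3% lower and 18.3% higher, with a median of 0.00. Their summed level was 20194 to 23141 in P25-WT and 20994 to 21825 in P25-KO, against 13309 to 14058 in P60-WT and 13588 to 14047 in P60-KO. Pdgfra, a defining precursor gene, had a mean of 1922 at P25 and 1535 at P60.

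Mature oligodendrocyte markers moved the same way, beside 37.6% of all genes called, with 9 of 12 lower and 1 higher and a median of -1.19. Their summed level was 445227 to 523668 in P25-WT and 404224 to 477216 in P25-KO, against 199174 to 218859 in P60-WT and 203770 to 227270 in P60-KO. Of 12 astrocyte markers, 7 fell and none rose (median -0.21), with sums of 156681 to 164150, 150969 to 167936, 132275 to 141083 and 127809 to 142235 in P25-WT, P25-KO, P60-WT and P60-KO. The part of these cell types in the lower Slc12a2 and Slc12a4 values and in the higher ratio was not tested.

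Choroid plexus markers, from another tissue rich in NKCC1, went the other way, with 7 of 12 higher and 1 lower and a median of 0.32. Their sums were 12163 to 15081 in P25-WT, 11217 to 14814 in P25-KO, 13566 to 19567 in P60-WT and 14801 to 15796 in P60-KO. Neuron markers were mixed, with 3 of 12 higher, 4 lower and a median of -0.06, and their sums overlapped between the ages (286933 to 302355 in P25-KO and 286722 to 293767 in P60-WT, with P25-WT from 292706 to 297497 and P60-KO from 281927 to 292488). The mean log2 level of the neuron markers did not overlap. It lay between 14.094 and 14.179 at P25 and between 14.050 and 14.088 at P60. Over all genes, 37.6% were called between the ages, 18.3% higher and 19.3% lower. In the genotype comparisons no gene of these 5 marker lists was called.

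The wider chloride pathway was described with 4 further lists, against a median of 0.00 over all genes for P60 minus P25 and the share of 37.6% called. Of 20 other SLC12 and WNK pathway genes, 19 were tested, 5 rose and 2 fell (median 0.03). Wnk3, which encodes another WNK kinase, rose from 1089 ± 57.1 to 1417 ± 109 normalized counts (SD, n = 6), a log2 change of 0.38 (adjusted p = 0.000240 by limma). Cab39, which encodes the MO25 scaffold that activates SPAK and OSR1, rose by 0.18 (adjusted p = 0.00195), and Sgk3, a kinase related to SGK1, by 0.30 (adjusted p = 0.0114).

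The members of that list that fell were Slc12a9, an orphan relative of the cotransporters (-0.27, adjusted p = 0.00306 by limma), and Ppp1ca, a catalytic subunit of protein phosphatase 1, which dephosphorylates cotransporters (-0.37, adjusted p = 0.00889). Ppp1ca was at 9432 normalized counts in P25-WT replicate 2 and at 5592 to 6895 in the other P25 libraries, and without that replicate it fell by 0.26 (adjusted p = 0.000571). Of 18 partners and regulators of KCC2, 4 rose and 2 fell (median 0.04). Prkca, a protein kinase C, rose by 0.36, Grik2, a kainate receptor subunit that binds KCC2, by 0.15, and Ntrk2, the BDNF receptor, by 0.15. Ckb, brain creatine kinase, fell by 0.25.

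Of 20 other chloride and bicarbonate transport genes tested, 5 rose and 2 fell (median 0.03). Slc4a7 (0.37) and Slc4a10 (0.22), which carry bicarbonate, Car2, a carbonic anhydrase (0.22), and Ano6, a scramblase and ion channel (0.20), rose. Lrrc8a, the essential subunit of volume-regulated anion channels, fell from 1983 ± 194 to 1473 ± 71.4 normalized counts (SD, n = 6; -0.42, adjusted p = 0.000171 by limma), and Clcn4, an endosomal chloride-proton exchanger, by 0.09.

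The sodium pump supplies the ion gradients on which the cotransporters run, and 5 of its 9 genes fell and 1 rose (median -0.25). Fxyd7, a regulatory subunit gene, fell from 1898 ± 139 to 1226 ± 59.1 normalized counts (SD, n = 6), a log2 change of -0.63 (adjusted p = 1.75e-06 by limma). Fxyd6, another regulatory subunit gene, fell by 0.47, and by 0.37 without P25-WT replicate 2 (adjusted p = 6.18e-05). It was at 5174 normalized counts in that replicate and at 3087 to 3897 in the other P25 libraries. Atp1b3, a beta subunit gene, rose by 0.20. Without P25-WT replicate 2, the numbers that rose and fell were 7 and 2 for the SLC12 and WNK pathway list, 4 and 4 for the KCC2 list, 5 and 4 for the other transport list and 1 and 5 for the sodium pump, beside 38.3% of all genes called. No gene of these 4 lists was called between KO and WT at either age, over both ages or in the interaction.

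**Figure D5:**
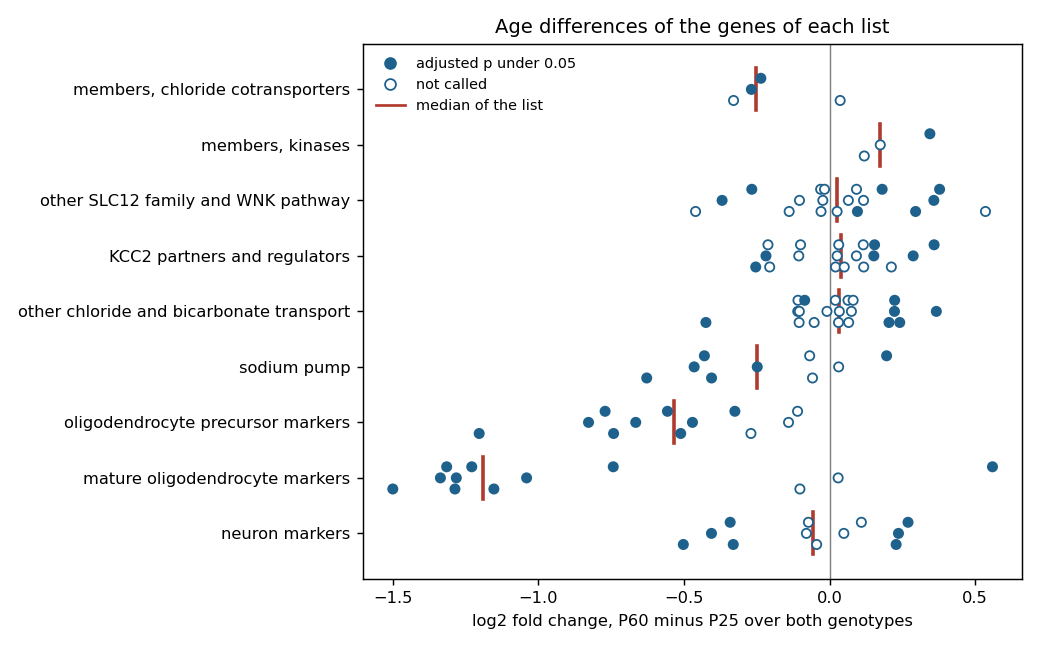
Log2 fold changes (P60 minus P25 over both genotypes) of the genes of 9 lists, with filled points for an adjusted p under 0.05 and a red line at the median of each list. The medians lie at -0.53 for oligodendrocyte precursor markers, -1.19 for mature oligodendrocyte markers and -0.25 for the sodium pump, and near 0 for the 3 other pathway lists.

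The genes most like Slc12a5, Slc12a2 and their ratio were found by Pearson correlation of log2 values over the 12 libraries among 12165 genes with a mean of at least 100, given as a description because all genes share the library, age and transcript length effects of these samples. Closest to Slc12a5 were Sez6l2 (0.952), Phlpp1 (0.944), Kcnk9 (0.927), Larp1 (0.907) and Efr3b (0.904). These values leaned on P25-WT replicate 2, in which Slc12a5 was at 19145 against 22364 to 24320 in the other libraries. Over the 11 libraries without it they were 0.772, 0.732, 0.657, 0.559 and 0.575 in the same order. Closest to Slc12a2 were Lrrc8a (0.973), Plekha1 (0.968), Bcar1 (0.964), Plekhh1 (0.962) and Ccnjl (0.957), so a gene of the anion transport list led this set, and without that replicate the 5 values lay between 0.962 and 0.981. The log2 ratio was most like Plxnc1 (0.975) and Pkn2 (0.958) and, in the opposite sense, Cd82 (-0.971) and Masp1 (-0.966). Further genes at these ends were Pcdhgb7 (0.951), Mars2 (0.951) and Inpp5a (0.949), and Zbtb8a (-0.965), Rhog (-0.963) and Fdft1 (-0.959).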

How the data were processed

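RNA from 12 forebrain libraries was sequenced after preparation with the TruSeq RNA Sample Prep Kit v2. The authors quantified transcripts with Salmon (1.1.0 in the submitters' processing notes), with a correction for GC bias, imported them with tximport and normalized them with DESeq2 (1.26.0 in the same notes). The deposited values are a signal on a count scale (normalized counts, corrected for transcript length) and not whole reads. Depth is therefore unknown, neither counting intervals nor detection limits are given, and precision rests on the number of libraries. The totals of 30568259 to 32348554 per library are sums after normalization. The reference transcriptome is not given in the sources used here. Symbols, positions and lengths came from GENCODE M21, in which 19252 of 19268 identifiers were found.

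Genes with a mean of at least 10 entered linear models of log2(value + 1) in limma 3.58.1 (R 4.3.3, eBayes with trend), with Benjamini-Hochberg adjustment over all genes and a threshold of 0.05. This scale understates changes of low genes. Comparisons within an age or genotype used the 6 libraries concerned, and those over both used all 12 with the other factor as covariate. Ratios were compared by exact permutation in Python 3.11.15. The linear models were tested on simulated data with independent values and 1 fixed dispersion. The simulation held none of the library, length or cerebellar effects seen in these samples. Groups and replicate numbers came from the sample titles. The 7 genes and all lists were chosen with earlier results of these data known. Named pathway genes were those called in the age comparison, up to 4 per list and direction by adjusted p, and some of these genes are not reported here. Alternatives used a pseudocount of 10, a minimum mean of 50 or none, equal library totals, quantile normalization, eBayes without trend, a replicate block, all 12 libraries in each fit, other gene lengths, linear ratios, or omission of 1 library at a time. Leaving out both libraries with cerebellar transcripts, and leaving out P25-WT replicate 2 for the pathway lists and correlations, were chosen after seeing the data.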

Additional observations from a re-analysis of the deposited data

How the results depend on the processing

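Slc12a2, Slc12a4 and Oxsr1 kept their direction and call between the ages over both genotypes in all 20 alternatives, where the number of the 7 genes called was 3 to 6. It was 5 with equal totals (6768 of all genes called) and 6 with quantile normalization (6542), where the deposited scaling called 6616. With 1 library left out it was 3 to 5. In WT it was 1, and 0 without the trend, 3 with all 12 libraries in one fit, and 0 to 3 with 1 library left out. In KO it was 2 (3641 of all genes called), and 4 with equal totals (3728) or quantile normalization (3575). It was 1 without the trend, with the replicate block or with all 12 libraries in one fit. In these the Slc12a2 call was lost (adjusted p = 0.0684 by limma with the replicate block). With 1 library left out it was 1 to 2. The cause of these shifts was not tested. No alternative called any of the 7 genes between genotypes or in the interaction.

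Whether replicate numbers pair the libraries was not settled. Deviations of same-numbered libraries correlated between -0.07 and 0.17, with no comparison in which all exceeded 0.1. Between P60-KO and P60-WT they ran from 0.06 to 0.17. With the replicate block the ratio difference between ages stayed at 0.27 (positive in 5 of 6 pairs, adjusted p = 0.25, exact permutation of signs), a test that could not pass, since 6 pairs give an exact p of 0.03125 at the smallest and an adjusted p of 0.125, and 4 of the 7 genes were called over both genotypes, with Wnk1 added. Leaving out both libraries with cerebellar transcripts, the ratio difference was 0.26.

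Sign changes occurred in values near 0. Without both libraries with cerebellar transcripts, KO minus WT was 0.0028 for Slc12a2 at P60 and, over both ages, 0.056 for Slc12a7, -0.034 for Wnk1 and -0.0092 for Stk39. For Slc12a7 over both ages it was 7.01e-05 with a pseudocount of 10, 0.0051 with equal totals and 0.0082 with quantile normalization. The interaction of Slc12a2 was -0.0063 with equal totals. With 1 library left out, KO minus WT ranged at P25 from -0.12 to 0.035 for Slc12a2 and from -0.066 to 0.11 for Slc12a5, and at P60 from -0.057 to 0.0054 for Slc12a2. Over both ages the ranges were -0.063 to 0.0046 for Slc12a2, -0.045 to 0.041 for Slc12a4, -0.051 to 0.026 for Slc12a5, -0.11 to 0.086 for Slc12a7, -0.058 to 0.040 for Wnk1, -0.017 to 0.034 for Stk39 and -0.012 to 0.049 for Oxsr1. Interactions ranged from -0.054 to 0.097 for Slc12a2, from -0.15 to 0.027 for Slc12a5 and from -0.11 to 0.031 for Oxsr1, and the age difference of Slc12a5 from -0.018 to 0.059. The ratio difference ranged from -0.049 to 0.034 at P60 and from -0.0042 to 0.055 over both ages between genotypes, and from 0.26 to 0.30 between ages. Depth behind the values is unknown and 3 libraries per group limit what could be called.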
